A study of Caenorhabditis elegans with 11 samples.

Results

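The cytosolic heat shock genes of Caenorhabditis elegans described here are 10 genes, picked by name and family from the 42048 genes of the count tables: 6 genes of the HSP-16 family of small heat shock proteins (hsp-16.1, hsp-16.11, hsp-16.2, hsp-16.41, hsp-16.48 and hsp-16.49), the inducible HSP70 gene hsp-70, the constitutive HSP70 gene hsp-1, the HSP110 gene hsp-110 and the transcription factor gene hsf-1. The study asked what bacterial indole and the receptor gene ahr-1 do to gene expression in old and young worms. It holds 11 RNA-seq libraries of whole animals in 5 groups. Late ahr-1 (n = 2) were 12-day animals of the mutant ahr-1(ia3), which carries a loss-of-function allele of the aryl hydrocarbon receptor gene, fed Escherichia coli K12. Late tnaA (n = 2) were 12-day wild-type N2 animals fed a K12 strain with a deletion of tnaA, the tryptophanase gene, which makes no indole. Late K12 (n = 2) were 12-day N2 animals on K12, which makes indole. Early tnaA (n = 2) and early K12 (n = 3) were young N2 adults on those same bacteria, 3 days old by the sample labels and 2-day adults by the design text. All animals were kept at 16 °C on nematode growth medium plates with their bacteria from the embryo on, and each library came from about 150 pooled adults. All mutant animals were late and on K12, and carried 1 allele, so neither their young state nor their state on tnaA bacteria was measured, and the allele cannot be told apart from other differences of that strain.

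Heat shock proteins are chaperones that hold, refold or disaggregate proteins that have lost their shape. Small heat shock proteins such as those of the HSP-16 family bind unfolding proteins without using ATP and keep them from aggregating. HSP70 proteins refold or release such clients in cycles of ATP binding, with J-domain proteins that bring the clients and nucleotide exchange factors such as HSP110 that reset the cycle. In C. elegans the transcription factor HSF-1 binds heat shock elements in the promoters of the hsp-16 genes and of hsp-70, which are at low levels in unstressed animals and rise steeply on heat shock, whereas hsp-1 is made in all cells at all times. The capacity of the worm to switch on these inducible genes is known to drop early in adulthood.

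The libraries held 8.31 to 15.3 gene counts in units of 1e6, with late tnaA replicate 3 the shallowest. Reads outside genes made up 11.6 to 13.8% of the late ahr-1 libraries, 9.26 and 14.8% of the late tnaA libraries, 8.27 to 8.56% of the late K12 libraries and 6.14 to 7.19% of the early libraries. The mutated gene, ahr-1, had 19 and 14 reads in the late ahr-1 libraries, against 56 and 35 for late K12, 44 and 17 for late tnaA and 3 to 13 for the early libraries, so that at this depth it is a weak check of the labels, and where the allele lies in the gene was not used here. Summed levels of 9 sperm marker genes, which set early tnaA replicate 2 and early K12 replicate 3 apart, were 49.4 and 45.9 CPM in those libraries, 21.6 to 26.4 in late ahr-1, and at most 13.1 in the other libraries. CPM here means reads per 1e6 gene counts, scaled between libraries by the trimmed mean of M-values (TMM). A gene was tested where it passed a filter on low counts (15133 genes), with edgeR's quasi-likelihood F test, and is called higher or lower at a Benjamini-Hochberg adjusted p under 0.05 over all genes tested. The ± after a log2 fold change is its standard error, and that after a CPM mean is the SD over the libraries of the group.

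Of the 10 genes, 6 had reads in the libraries, and all 6 passed the filter. The other 4, hsp-16.1, hsp-16.11, hsp-16.48 and hsp-16.49, had 0 reads in each of the 11 libraries and were not tested. A count of 0 allows at most 3 reads, which were 0.196 to 0.361 per 1e6 gene counts over the libraries, for counting error alone. These genes form 2 near-identical pairs side by side on chromosome V. The current Ensembl annotation of assembly WBcel235 gives hsp-16.1 and hsp-16.11 a single symbol, and likewise hsp-16.48 and hsp-16.49, while RefSeq names all 4. How reads that map to more than 1 place were treated is not stated in the sources used here, and therefore a count of 0 for these 4 genes does not say that they were silent. F44E5.4 and F44E5.5, a near-identical pair of inducible HSP70 genes, also had 0 reads in all 11 libraries, while 16809 of the 42048 genes had none. The results below therefore rest on hsp-16.2, hsp-16.41, hsp-70, hsp-110, hsp-1 and hsf-1, with 642 to 69109 reads each per library.

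**Figure D1:**
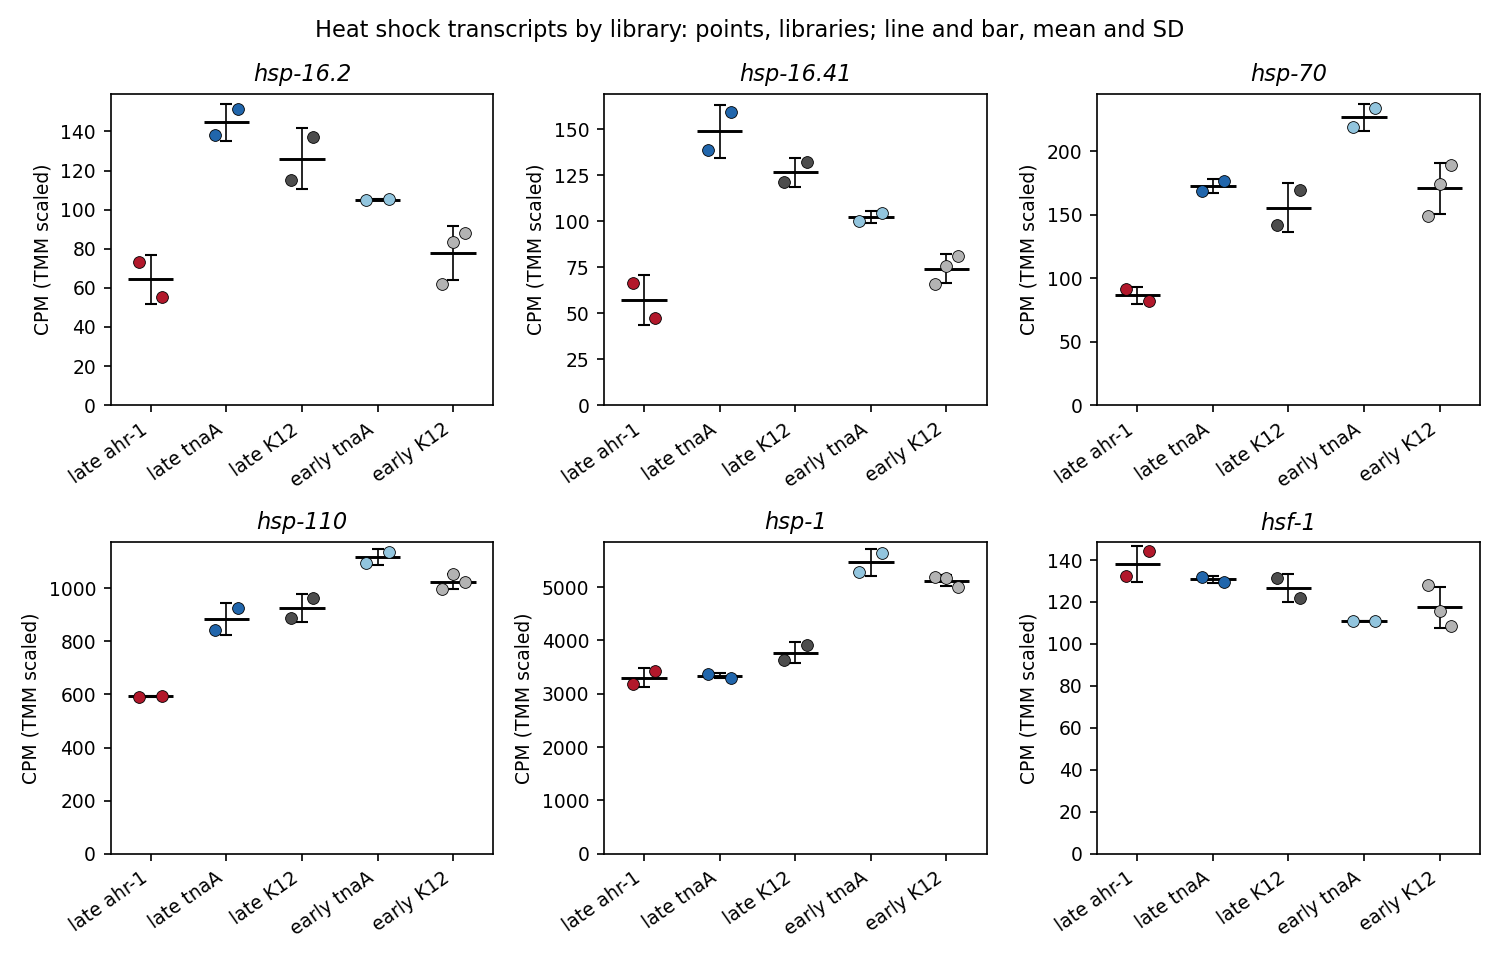
Level of the 6 heat shock genes with reads in each library, in CPM with TMM scaling on linear axes that start at 0, by group. Points are libraries, the horizontal line is the group mean and the bar its SD. The genes hsp-16.2, hsp-16.41, hsp-70 and hsp-110 are lower in both late ahr-1 libraries than in any other late library. Highest in the early groups are hsp-1 and hsp-110. With library sizes alone hsp-110 is higher in late than in early wild-type worms on either bacterium, which does not hold for late ahr-1.

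The inducible chaperone transcripts were lower in old ahr-1 mutants than in old wild-type worms on the same K12 bacteria. The small heat shock genes hsp-16.2 and hsp-16.41 and the HSP70 gene hsp-70 stood at 0.45 to 0.56 times their late K12 level, and hsp-110 at 0.64 times. The constitutive hsp-1 was lower by a small margin, and hsf-1 was not called. In all, 5 of the 6 genes tested were lower and 0 higher, where 12.16% of all genes tested were called lower, 12.26% higher and 24.4% in either direction. Libraries of both groups did not overlap for 6 of 6 genes, which also held for 64.2% of all genes tested. The median log2 fold change of the 6 was -0.74, beside 0 over all genes tested.

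Among the small heat shock genes, hsp-16.2 had 73.3 and 55.5 CPM in late ahr-1 replicates 1 and 3, against 115 and 137 CPM in late K12 replicates 1 and 3. Its neighbour hsp-16.41 had 66.7 and 47.4 CPM in the same mutant libraries, against 121 and 132 CPM in the late K12 libraries. Both late ahr-1 libraries lay below both late K12 libraries for each gene, with replicate 3 the lower of the mutant libraries both times. The change on the log2 scale was -0.97 ± 0.15 for hsp-16.2 (adjusted p = 7.78e-04) and -1.16 ± 0.13 for hsp-16.41 (adjusted p = 1.40e-04), which ranked 76 by p among the 15133 genes. In whole animals, fewer cells that hold a transcript and less of it per cell cannot be told apart.

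The inducible hsp-70 had 91.3 and 82.0 CPM in late ahr-1 replicates 1 and 3, against 141.7 and 169 CPM in late K12 replicates 1 and 3. Its exchange factor partner hsp-110 had 592 and 595 CPM in the mutant libraries, against 889 and 964 CPM in late K12. The mutant libraries were close to each other for both genes and lay well below late K12. On the log2 scale the change was -0.84 ± 0.11 for hsp-70 (adjusted p = 2.64e-04) and -0.64 ± 0.06 for hsp-110 (adjusted p = 5.09e-05), and hsp-110 ranked 35 by p among all genes. The constitutive HSP70 gene hsp-1 had 3174 and 3426 CPM in late ahr-1 against 3626 and 3905 CPM in late K12, a log2 fold change of -0.19 ± 0.06 (adjusted p = 0.026). Leaving out a late library leaves 1 in its group. The call was then lost without late ahr-1 replicate 1, late K12 replicate 1 or late K12 replicate 3. The log2 fold changes of hsp-1 in these fits were -0.14, -0.25 and -0.14, in that order. The transcription factor gene hsf-1 had 132 and 144 CPM in late ahr-1 against 131 and 122 CPM in late K12, a log2 fold change of 0.13 ± 0.07 with a 95% interval of -0.03 to 0.29 (adjusted p = 0.227).

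The inducible and the constitutive HSP70 genes thus moved by unequal amounts within the same libraries. For every 100 reads of hsp-1, hsp-70 had 2.88 and 2.39 reads in late ahr-1 replicates 1 and 3, against 3.91 and 4.33 in late K12 replicates 1 and 3. Late tnaA replicates 2 and 3 had 5.00 and 5.34. This ratio uses no scaling between libraries, and the summed exons of both genes are of like length, 2057 and 2073 bases in WBcel235. The late ahr-1 values lay below all other late values, and early K12 libraries (2.87 to 3.77) reached into them.

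**Figure D2:**
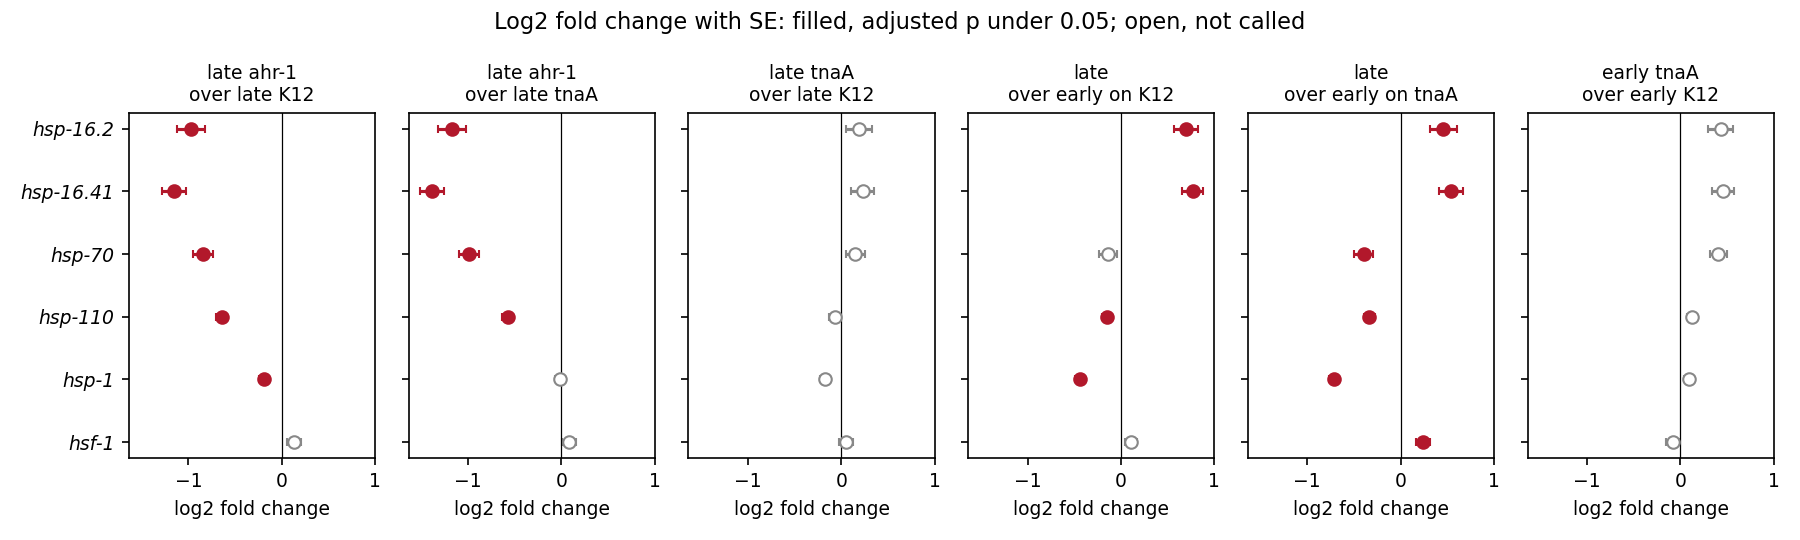
Log2 fold change of the 6 heat shock genes with reads in each of 6 comparisons, with its standard error as a horizontal bar. Filled red points passed the adjusted p threshold of 0.05 and open grey points did not; the 2 comparisons with late ahr-1 on top hold filled points left of 0, the age comparisons hold filled points on both sides (hsp-70 and hsp-110 change sign there with library sizes alone), and both comparisons of tnaA over K12 hold open points alone.

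Old mutants on K12 were also set against old wild-type worms on tnaA bacteria, which differ from them in both genotype and food, and hsp-16.2, hsp-16.41, hsp-70 and hsp-110 were again lower. Of the 6 genes tested 4 were lower and 0 higher, where 9.92% of all genes tested were called lower, 9.32% higher and 19.2% in either direction. Libraries did not overlap for 5 of 6 genes, beside 60.2% of all genes, and the median log2 fold change of the 6 was -0.78, beside -0.01 over all genes tested. The log2 fold change was -1.17 ± 0.15 for hsp-16.2 (adjusted p = 2.50e-04), -1.39 ± 0.13 for hsp-16.41 (adjusted p = 3.80e-05), -0.99 ± 0.11 for hsp-70 (adjusted p = 9.58e-05) and -0.58 ± 0.06 for hsp-110 (adjusted p = 8.89e-05). For hsp-1 it was -0.02 ± 0.06 with a 95% interval of -0.14 to 0.11 (adjusted p = 0.882), and for hsf-1 0.08 ± 0.07 with an interval of -0.08 to 0.24 (adjusted p = 0.502). This comparison shares the mutant libraries with the one against late K12, so both are given side by side and neither checks the other. The calls of hsp-16.2, hsp-16.41, hsp-70 and hsp-110 in both comparisons were made under all 21 alternatives, with log2 fold changes from -1.65 to -0.51. Under the alternatives with summed copies, the summed row of hsp-16.2 and hsp-16.41 stood for each of them.

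Some markers of other tissues were called in the mutant too. Over late K12, 12.26% of all genes tested were called higher and 12.16% lower. Over late tnaA these shares were 9.32% and 9.92%. A count of 1 called gene in a marker list is near these shares. All 12 germline and oocyte markers were lower in late ahr-1 than in late K12 (summed level 5625 to 6852 CPM against 8167 to 8670 CPM, none of them at 0 reads), whereas against late tnaA (5966 to 6305 CPM) 0 of 12 were called by edgeR, 0 had an unadjusted p under 0.05 and 0 were called by DESeq2. Of 9 sperm markers, 8 were tested and 5 were higher against late K12 (summed level 21.6 to 26.4 CPM against 2.12 to 2.60 CPM, with ssp-16 and msp-142 at 0 reads in late K12 and msd-1 at 0 in both groups). Of 8 hypodermal markers 3 were lower (269 to 294 CPM against 331 to 343 CPM), and of 9 neuronal markers 1 was higher and 4 lower (410 to 414 CPM against 418 to 431 CPM). Of 8 intestinal markers 1 was higher (945 to 952 CPM against 750 to 912 CPM), of 8 muscle markers 1 was higher (498 to 608 CPM against 478 to 507 CPM) and of 6 embryo markers tested 1 was higher (12.5 to 14.2 CPM against 9.84 to 10.6 CPM, with med-1 at 0 in late ahr-1). Against late tnaA the other marker lists held called genes too. Of 9 neuronal markers 6 were lower and 0 higher (median log2 fold change -0.59). Of 8 hypodermal markers 2 were lower and 0 higher (median -0.55). Of 8 muscle markers 3 were higher and 1 lower, and of 8 sperm markers tested 2 were higher and 0 lower. Of 8 intestinal markers 1 was lower, and of 6 embryo markers tested 1 was higher. The part of the germline, sperm, hypodermal, neuronal, intestinal, muscle and embryo markers, and of the larger share of reads outside genes in late ahr-1, in the lower heat shock levels was not tested.

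The authors' deposited table of late ahr-1 over late K12 lists 2071 genes, and 5 of the 10 heat shock genes are among them. In the authors' deposited table the log2 fold change was -1.06 for hsp-16.41 (adjusted p = 8.18e-15), -0.90 for hsp-16.2 (adjusted p = 4.31e-11), -0.80 for hsp-70 (adjusted p = 4.94e-12), -0.63 for hsp-110 (adjusted p = 1.19e-16) and -0.19 for hsp-1 (adjusted p = 0.0468). The authors' deposited table of the late bacterial comparison lists 1380 genes with fold changes coded as late K12 over late tnaA, and of the heat shock genes it holds hsp-1 alone (0.22, adjusted p = 0.00115). Those tables come from the same libraries.

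In old wild-type worms on bacteria without indole, the heat shock genes were not called against K12. None of the 6 genes tested passed the adjusted threshold in late tnaA over late K12 with edgeR, 1 (hsp-1) had an unadjusted p under 0.05, and DESeq2 called 1, where 10.1% of all genes tested were called, 4.27% higher and 5.85% lower. Libraries did not overlap for 3 of 6 genes, beside 57.7% of all genes. The level of hsp-16.2 was 138 and 151 CPM in late tnaA replicates 2 and 3, and that of hsp-16.41 was 139 and 159 CPM. Both pairs lay above the late K12 libraries given before, by less than the rounding of these values for the closest libraries of hsp-16.2. The log2 fold change was 0.20 ± 0.14 for hsp-16.2 (95% interval -0.11 to 0.50, adjusted p = 0.405) and 0.23 ± 0.12 for hsp-16.41 (-0.03 to 0.49, adjusted p = 0.247). Both intervals hold 0, and neither shows that the levels were alike.

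The level of hsp-70 was 169 and 176 CPM in late tnaA replicates 2 and 3, and its log2 fold change was 0.15 ± 0.10 (95% interval -0.07 to 0.37, adjusted p = 0.385), with 1 late K12 library inside that range. The level of hsp-110 was 843 and 926 CPM, with a log2 fold change of -0.07 ± 0.06 (-0.20 to 0.07, adjusted p = 0.539), and that of hsf-1 was 132 and 130 CPM (0.05 ± 0.07, -0.11 to 0.21, adjusted p = 0.718). Late tnaA and late K12 libraries overlapped for these 3 genes. The constitutive hsp-1, at 3368 and 3301 CPM in late tnaA, lay below both late K12 libraries, with a log2 fold change of -0.18 ± 0.06 (95% interval -0.30 to -0.05) that missed the threshold at an adjusted p of 0.066. Of 21 alternatives 7 called it lower, among them DESeq2 (-0.19, adjusted p = 0.00295). The 12 germline and oocyte markers were lower in this comparison as well, 12 of 12 called (5966 to 6305 CPM in late tnaA against 8167 to 8670 CPM in late K12, none at 0 reads), and their part in the level of hsp-1 was not tested.

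With age the members did not all move one way: the hsp-16 pair was higher in late than in early worms on both bacteria, while hsp-1 and hsp-110 were lower (hsp-110 was higher with library sizes alone). On K12, 2 of 6 genes were higher and 2 lower, where 32.9% and 36.7% of all genes tested were called higher and lower and 69.6% in either direction. On tnaA, 3 of 6 were higher and 3 lower, where 35.6% and 36.3% were called higher and lower and 72.0% in either direction. Libraries did not overlap for 4 of 6 genes on K12 and 6 of 6 on tnaA, beside 79.3% and 85.5% of all genes. With library sizes alone the calls over all genes were 7755 higher and 3032 lower on K12, beside 4974 and 5553 with TMM, and 7848 and 3140 on tnaA, beside 5394 and 5498. The members' shares are near those of all genes, so that their counts of calls set them apart from nothing. The age comparison on each bacterium shares its late libraries with the late comparisons above.

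On K12, hsp-16.2 was at 115 and 137 CPM late, against 62.1, 83.3 and 87.8 CPM in early replicates 1 to 3. On tnaA it was at 138 and 151 CPM late, against 105.1 and 105.2 CPM early. Late libraries lay above all early ones on either bacterium, and this held for hsp-16.41 too, with 121 and 132 CPM late against 65.9, 75.9 and 81.2 CPM early on K12, and 139 and 159 CPM late against 100.1 and 105 CPM early on tnaA. The log2 fold change on K12 was 0.70 ± 0.13 for hsp-16.2 (adjusted p = 3.23e-04) and 0.77 ± 0.11 for hsp-16.41 (adjusted p = 4.03e-05). On tnaA it was 0.46 ± 0.14 for hsp-16.2 (adjusted p = 0.0112) and 0.54 ± 0.12 for hsp-16.41 (adjusted p = 0.00155). The call of hsp-16.2 was lost without late tnaA replicate 3, which leaves 1 late tnaA library (log2 fold change 0.39).

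The constitutive hsp-1 was at 3626 and 3905 CPM late, against 5192, 5166 and 5004 CPM early on K12, and at 3368 and 3301 CPM late, against 5286 and 5642 CPM early on tnaA. All late libraries lay below all early ones, and the log2 fold change was -0.44 ± 0.05 on K12 (adjusted p = 4.59e-06, and -0.02 with an adjusted p of 0.606 with library sizes alone) and -0.71 ± 0.06 on tnaA (adjusted p = 8.29e-08). For hsp-110 the values were 889 and 964 CPM late against 997, 1056 and 1023 CPM early on K12 (-0.15 ± 0.06, adjusted p = 0.0323), and 843 and 926 CPM late against 1095 and 1138 CPM early on tnaA (-0.34 ± 0.06, adjusted p = 2.47e-04). These 2 calls of hsp-110 depended on the scaling between libraries: with library sizes alone its log2 fold change was 0.27 on K12 and 0.14 on tnaA, in a scale on which the median of all genes moved by 0.42 on K12 and 0.47 on tnaA. On K12 its call was also lost without late K12 replicate 1, which leaves 1 late K12 library (log2 fold change -0.09). The same held without early K12 replicate 2 (adjusted p = 0.0973) or early K12 replicate 3 (0.0554). It held too without early tnaA replicate 2 and early K12 replicate 3 together (log2 fold change -0.16). It was lost as well with RLE size factors (-0.08, adjusted p = 0.214), DESeq2 (-0.08, adjusted p = 0.177), the compared groups alone (-0.08, adjusted p = 0.148), no filter (-0.14, adjusted p = 0.0679) and genes of at least 5 CPM (-0.03, adjusted p = 0.651). The call of hsp-110 on K12 thus depended on these settings.

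The inducible hsp-70 did not follow the hsp-16 pair with age. On K12 it was at 141.7 and 169 CPM late against 149, 174 and 189 CPM early, with overlapping libraries and a log2 fold change of -0.14 ± 0.09 (95% interval -0.34 to 0.06, adjusted p = 0.205). It was called lower when late K12 replicate 3 was left out (-0.27, adjusted p = 0.0449) or early K12 replicate 1 (-0.23, adjusted p = 0.0292), and higher with library sizes alone (0.28, adjusted p = 0.0251). On tnaA it was at 169 and 176 CPM late against 219 and 234 CPM early, with a log2 fold change of -0.40 ± 0.10 (adjusted p = 0.00345), or of 0.08 (adjusted p = 0.521) with library sizes alone. The regulator hsf-1 was at 131 and 122 CPM late against 128, 116 and 109 CPM early on K12 (0.11 ± 0.07, adjusted p = 0.168), and at 132 and 130 CPM late against 111.1 and 110.9 CPM early on tnaA (0.24 ± 0.08, adjusted p = 0.0115). The call of hsf-1 on tnaA was lost without late tnaA replicate 2, early tnaA replicate 2 or early tnaA replicate 3. Each of these fits leaves 1 library in a group, and the log2 fold changes were 0.22, 0.23 and 0.23. On K12 6 of 21 alternatives called it higher: without early K12 replicate 1 (0.17, adjusted p = 0.0294), RLE size factors (0.17, adjusted p = 0.0305), library sizes alone (0.53, adjusted p = 3.42e-06), genes of at least 5 CPM (0.23, adjusted p = 0.00335), DESeq2 (0.17, adjusted p = 0.0473) and the compared groups alone (0.18, adjusted p = 0.0348).

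Tissue markers were called with age as well. Of all genes tested, 32.9% were called higher and 36.7% lower on K12, 69.6% in either direction. On tnaA these shares were 35.6%, 36.3% and 72.0%. A called marker by itself thus does not set its tissue apart. All 12 germline and oocyte markers (8167 to 8670 CPM late against 15686 to 16719 CPM early on K12), all 8 intestinal markers (750 to 912 CPM against 2879 to 3556 CPM) and all 8 body wall muscle markers (478 to 507 CPM against 4028 to 4548 CPM) were lower late on K12. Of 9 neuronal markers 8 were higher (418 to 431 CPM against 242 to 244 CPM). On tnaA, 12 germline, 8 intestinal and 8 muscle markers were lower and 9 neuronal markers higher. Of 8 hypodermal markers 4 were higher and 2 lower on either bacterium (331 to 343 CPM late against 1494 to 1645 CPM early on K12). Most of the early sum was col-19, with a mean of 29.7 CPM late against 1391 CPM early on K12. Means were higher late for lin-26 (155 against 111 CPM), sqt-3 (108 against 62.9 CPM) and dpy-7 (21.5 against 5.81 CPM). Of 8 sperm markers tested 1 was higher and 5 lower on K12, and 1 and 4 on tnaA, and of 6 embryo markers 1 and 3, and 1 and 2. No gene of the germline, intestinal, muscle, neuronal and hypodermal lists was at 0 reads in any group, and the part of all these markers in the age changes of the heat shock genes was not tested.

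In young wild-type worms, hsp-16.2, hsp-16.41 and hsp-70 had higher mean levels on tnaA than on K12 bacteria, but none of the 6 genes passed the adjusted threshold with edgeR. At an unadjusted p under 0.05 there were 4, and DESeq2 called 2 (hsp-16.41, adjusted p = 0.0309, and hsp-70, adjusted p = 0.00864), where edgeR called 0.0661% of all genes tested, 0.0529% higher and 0.0132% lower. Both early tnaA libraries lay above all 3 early K12 libraries for 5 of 6 genes, beside 22.3% of all genes whose groups did not overlap. The log2 fold change was 0.43 ± 0.13 for hsp-16.2 (95% interval 0.14 to 0.72, adjusted p = 0.298), 0.46 ± 0.12 for hsp-16.41 (0.21 to 0.71, adjusted p = 0.178) and 0.41 ± 0.09 for hsp-70 (0.21 to 0.61, adjusted p = 0.132), which ranked 80 by p among 15133 genes. Without early K12 replicate 3, hsp-70 was called (0.49, adjusted p = 0.0468). For the others it was 0.09 ± 0.05 for hsp-1 (adjusted p = 0.778), 0.12 ± 0.06 for hsp-110 (adjusted p = 0.637) and -0.08 ± 0.07 for hsf-1 (adjusted p = 0.924). The sperm-rich libraries fall in both early groups. Leaving both out leaves 1 early tnaA library, too few to decide their part in these levels, which was not tested.

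Whether the change with age depended on the bacteria was tested as the difference of both age changes, tnaA minus K12. None of the 6 genes was called with edgeR, 2 had an unadjusted p under 0.05 and DESeq2 called 1 (hsp-1), where 2.41% of all genes tested were called, 0.971% higher and 1.43% lower. The difference was -0.24 ± 0.19 for hsp-16.2 (adjusted p = 0.52), -0.23 ± 0.17 for hsp-16.41 (adjusted p = 0.474), -0.26 ± 0.14 for hsp-70 (adjusted p = 0.306), -0.19 ± 0.08 for hsp-110 (adjusted p = 0.211) and 0.13 ± 0.10 for hsf-1 (adjusted p = 0.495). For hsp-1 it was -0.27 ± 0.08 (95% interval -0.43 to -0.10, adjusted p = 0.073). Without late ahr-1 replicate 1 or 3, hsp-1 was called (log2 differences of -0.27 and -0.28). Leaving out those libraries changes the genes tested, the scaling and the shared estimate of spread together.

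The hsp-16.2 and hsp-16.41 genes are neighbours on chromosome V in WBcel235, lie on opposite strands and are transcribed away from each other. Their reads kept close to a 1 to 1 ratio while their level moved: over the 11 libraries, hsp-16.41 had 0.855 to 1.06 times the reads of hsp-16.2, and their summed level ran from 103 to 311 CPM. The ratio was 0.910 and 0.855 in late ahr-1 replicates 1 and 3, 1.01 and 1.05 for late tnaA, 1.05 and 0.964 for late K12, 0.952 and 0.993 for early tnaA, and 1.06, 0.911 and 0.925 for early K12. The ratio was lowest in late ahr-1 replicate 3, and late ahr-1 replicate 1 was level with early K12 replicate 2. Counted as 1 gene, the pair had a log2 fold change of -1.06 ± 0.14 in late ahr-1 over late K12 (adjusted p = 2.95e-04) and of -1.27 ± 0.14 over late tnaA (adjusted p = 9.46e-05). The 2 genes are close in sequence to other HSP-16 genes, so reads may be split or lost among them.

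**Figure D3:**
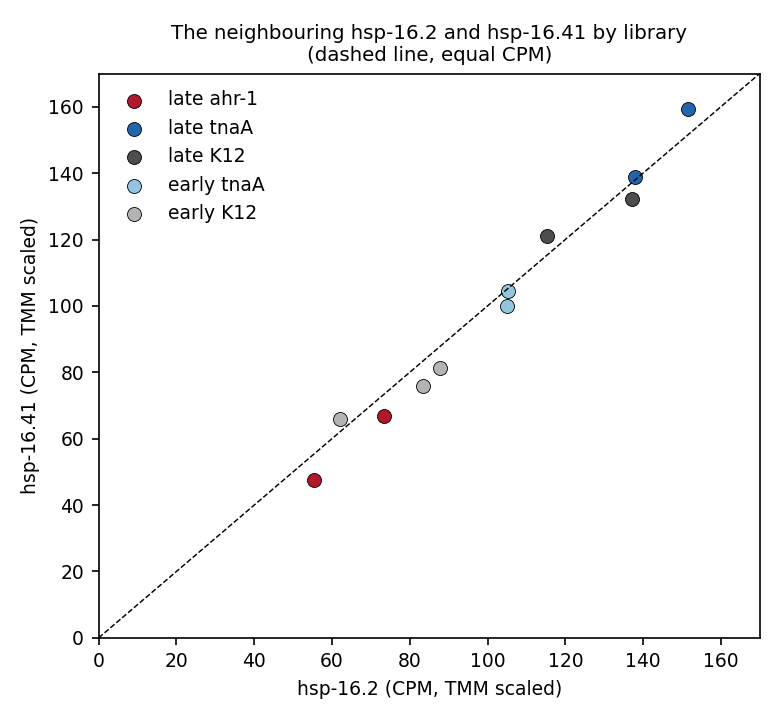
Level of hsp-16.41 against that of its neighbour hsp-16.2, each in CPM with TMM scaling, with 1 point per library coloured by group and a dashed line at equal CPM. The 11 points run along the line, with both late ahr-1 libraries and the early K12 libraries at the low end and both late tnaA libraries at the high end.

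The order of the groups differed between the genes. For the hsp-16 pair it ran late tnaA, late K12, early tnaA, early K12, late ahr-1 from high to low, for example 145 ± 9.54, 126 ± 15.5, 105 ± 0.0956, 77.8 ± 13.7 and 64.4 ± 12.59 CPM for hsp-16.2. Late ahr-1 and early K12 libraries overlapped for both genes. For hsp-70 it ran early tnaA (227 ± 10.796 CPM), late tnaA (172 ± 5.57), early K12 (171 ± 20.05), late K12 (155 ± 19.3) and late ahr-1 (86.6 ± 6.64), where the 3 groups in the middle overlapped. For hsp-110 and hsp-1 it ran early tnaA, early K12, late K12, late tnaA, late ahr-1, with means from 1117 ± 30.4 to 593 ± 1.97 CPM for hsp-110 and from 5464 ± 252 to 3300 ± 178 CPM for hsp-1. Late ahr-1 stood apart at the low end for hsp-70 and hsp-110, whereas its hsp-1 libraries enclosed those of late tnaA. For hsf-1 late ahr-1 was highest (138 ± 8.46 CPM) and early tnaA lowest (111 ± 0.144 CPM), with late tnaA (131 ± 1.66), late K12 (126 ± 6.68) and early K12 (117 ± 9.74) between. Its late ahr-1 libraries lay just above late tnaA without overlap, and the other neighbours in this order overlapped. Old mutants were not tested against young wild-type worms, since age and genotype both differ there.

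Per kilobase of exon, the constitutive hsp-1 was the most abundant of the 6 in every group, at 1592 ± 85.9 CPM per kb in late ahr-1 and 1817 ± 95.2 CPM per kb in late K12. Next came hsp-110, at 220 ± 0.729 CPM per kb in late ahr-1 and 343 ± 19.6 CPM per kb in late K12. The level of hsp-16.2 was 111 ± 21.8 CPM per kb in late ahr-1 and 218 ± 26.8 CPM per kb in late K12, and that of hsp-16.41 was 89.2 ± 21.3 and 198 ± 12.07 CPM per kb in these groups. In late K12, hsp-70 (75.5 ± 9.37 CPM per kb) was above hsf-1 (51.0 ± 2.69 CPM per kb). In late ahr-1 the order of these 2 was turned, with 42.1 ± 3.23 CPM per kb for hsp-70 and 55.8 ± 3.41 CPM per kb for hsf-1. Exon lengths are those of WBcel235, and reads on near-identical copies could change the values of the hsp-16 genes.

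Around these genes, 64 other chaperone and protein quality control genes were listed in 7 lists, of which 62 were tested. In late ahr-1 over late K12, 4 of the 62 were higher and 15 lower, with a median log2 fold change of -0.04. Over all genes tested 12.26% were called higher and 12.16% lower, with a median of 0. The HSP70 co-chaperones were 8 genes tested, of which 0 were higher and 2 lower, with a median of -0.12. The lower 2 were unc-23, which codes for a BAG-domain partner of HSP70, and dnj-13, which codes for a J-domain partner of HSP70 and HSP110. The level of unc-23 was 47.1 and 53.2 CPM in late ahr-1 against 87.5 and 99.2 CPM in late K12, and that of dnj-13 was 216 and 228 CPM in late ahr-1 against 290.0 and 329 CPM in late K12. Mutant libraries lay below all other late libraries for both. The log2 fold change was -0.89 ± 0.08 for unc-23 (adjusted p = 2.29e-05, rank 19 by p) and -0.48 ± 0.06 for dnj-13 (adjusted p = 3.23e-04), and both were called under all 21 alternatives. Over late tnaA it was -0.83 ± 0.08 for unc-23 (adjusted p = 3.49e-05) and -0.48 ± 0.06 for dnj-13 (adjusted p = 3.06e-04), with the same 2 genes of the list called. Of all genes tested, 19.2% were called over late tnaA. In late tnaA over late K12 none of the 8 was called, beside 10.1% of all genes tested. None of the 8 had an unadjusted p under 0.05 and DESeq2 called 0.

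The other lists had called genes in the mutants as well. Beside their counts stand the same shares of 12.26% higher and 12.16% lower over all genes tested. Of 9 genes listed as HSP90 machinery 2 were lower and 0 higher (median -0.09). They were the co-chaperone gene daf-41, listed as ZC395.10 in the counts (-0.29 ± 0.05, adjusted p = 0.00208), and the cyclophilin gene cyn-12 (-0.25 ± 0.07, adjusted p = 0.015). Whether the product of cyn-12 works with HSP90 was not checked. Of 14 genes of the chaperonin CCT, which folds actin and tubulin, and of its partner prefoldin, 1 was higher and 3 lower (median -0.01), among them cct-7 (-0.23 ± 0.07, adjusted p = 0.0259) and the prefoldin gene pfd-1 (0.21 ± 0.07, adjusted p = 0.0471). Of 12 other small heat shock genes 1 was higher and 1 lower (median 0.22): F08H9.3 (1.45 ± 0.38, adjusted p = 0.0149), at 3.59 and 3.84 CPM in late ahr-1 against 1.27 and 1.43 CPM in late K12, and the germline and embryo gene sip-1 (-0.24 ± 0.07, adjusted p = 0.023). Of 4 quality control genes 1 was lower, cdc-48.1 for the unfolding ATPase p97 (-0.27 ± 0.06, adjusted p = 0.00491). None of 5 genes for HSF-1 and its regulators other than hsf-1, with hsb-1 for the HSF-1 binding protein, was called in either late comparison with late K12, none had an unadjusted p under 0.05 and DESeq2 called 0. Leaving out a library ended several of these calls. For cyn-12 this held for late ahr-1 replicate 1, late ahr-1 replicate 3 and late K12 replicate 1, for cct-7 and sip-1 for late ahr-1 replicate 1 and both late K12 libraries, for pfd-1 and F08H9.3 for each of the 4 late libraries compared, and for cdc-48.1 for late K12 replicate 1.

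Of 10 chaperones of the endoplasmic reticulum and mitochondria, 2 were higher and 6 lower in late ahr-1 over late K12 (median -0.27). The shares over all genes tested were 12.26% and 12.16%. The mitochondrial HSP70 gene hsp-6 had a log2 fold change of -0.45 ± 0.06 (adjusted p = 5.93e-04), the mitochondrial chaperonin gene hsp-60 of -0.58 ± 0.10 (adjusted p = 0.00169), the mitochondrial HSP90 gene R151.7 of -0.29 ± 0.06 (adjusted p = 0.00404) and the endoplasmic HSP70-related gene stc-1 of -0.30 ± 0.06 (adjusted p = 0.00284). In late tnaA over late K12, 4 of the 10 were lower, again with hsp-6 (-0.30 ± 0.06, adjusted p = 0.0158), hsp-60 (-0.61 ± 0.10, adjusted p = 0.00718) and R151.7 (-0.29 ± 0.06, adjusted p = 0.0138), and with Y22D7AL.10, an HSP10-like gene (-0.43 ± 0.10, adjusted p = 0.0208). Lower calls made up 5.85% of all genes tested in that comparison. With replicate numbers as a block the 4 calls on tnaA were lost. The same happened when late tnaA replicate 3 or late K12 replicate 1 was left out. That of hsp-6 was lost when late K12 replicate 3 was left out as well, and that of Y22D7AL.10 when late tnaA replicate 2 was. The call of R151.7 in the mutants was lost without late K12 replicate 1. In late ahr-1 over late tnaA 1 of the 10 was higher and 1 lower, beside 9.32% and 9.92% of all genes tested. Side by side, and with late K12 shared by both comparisons, hsp-70 was -0.84 over late K12 in the mutants and 0.15 on tnaA bacteria, and hsp-60 was -0.58 and -0.61.

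**Figure D4:**
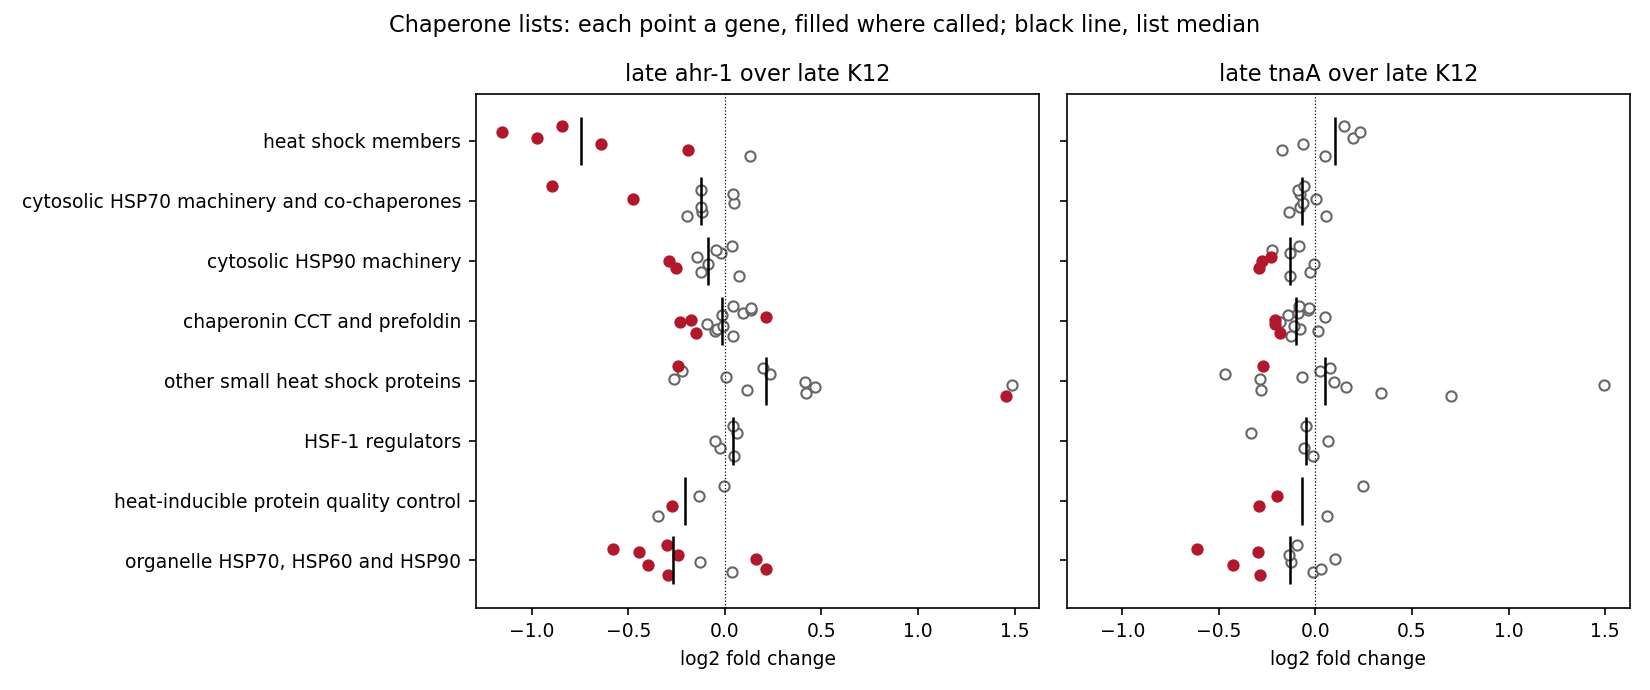
Log2 fold change of each tested gene of the heat shock members and the 7 chaperone lists in late ahr-1 over late K12 (left) and late tnaA over late K12 (right). Filled red points were called, open points were not, and the black line is the median of a list; the members' median is -0.74 on the left and 0.10 on the right, and the medians of the 7 lists lie between -0.27 and 0.22.

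Over all genes tested, late tnaA over late K12 gave 4.27% higher and 5.85% lower (median 0.06). Over the 7 lists this comparison gave 0 higher and 13 lower of 62 (median -0.08). The lower genes of the HSP90 list were daf-41 (-0.28 ± 0.05, adjusted p = 0.0104), cyn-12 (-0.29 ± 0.07, adjusted p = 0.0197) and the immunophilin gene fkb-6 (-0.23 ± 0.05, adjusted p = 0.021). Lower too were 3 CCT subunits with cct-6 (-0.21 ± 0.05, adjusted p = 0.023) and cct-8 (-0.21 ± 0.05, adjusted p = 0.0222), and sip-1 (-0.27 ± 0.07, adjusted p = 0.0283). The others were the p97 genes cdc-48.1 (-0.29 ± 0.06, adjusted p = 0.0121) and cdc-48.2 (-0.20 ± 0.05, adjusted p = 0.0384), and the 4 organelle genes given above. With late tnaA replicate 3, the shallowest library, or late K12 replicate 1 left out, 0 of the 62 were called by edgeR, and with the replicate number as a block it was 0 too. With late tnaA replicate 2 left out 5 were called, and with late K12 replicate 3 left out 4. In this comparison the germline and oocyte markers were lower as well, as given above, and their part in these list values was not tested.

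With age on K12, 4 of the 62 list genes were higher and 47 lower (median -0.56, beside -0.04 over all genes tested), and on tnaA 4 were higher and 52 lower (median -0.72, beside 0.02). Beside all counts of this paragraph stand 32.9% of all genes tested called higher and 36.7% lower on K12. On tnaA these shares were 35.6% and 36.3%. All 14 chaperonin and prefoldin genes and all 9 HSP90 machinery genes were lower on both bacteria, among them cct-2 (-0.88 ± 0.05 on K12, adjusted p = 2.02e-09), cct-3 (-0.83 ± 0.04, adjusted p = 2.13e-09), the HSP90 co-chaperone gene sti-1 (-1.09 ± 0.06, adjusted p = 5.60e-09) and the myosin chaperone gene unc-45 (-0.72 ± 0.05, adjusted p = 3.25e-08). Of 8 HSP70 co-chaperones 6 were lower on K12 and 7 on tnaA, among them dnj-19 (-0.54 ± 0.04 on K12, adjusted p = 1.20e-07) and the HSP70-interacting protein gene hip-1 (-0.72 ± 0.06, adjusted p = 2.66e-07). Of 10 organelle chaperones 9 were lower on both, among them hsp-60 (-1.06 ± 0.09 on K12, adjusted p = 2.55e-07) and hsp-4 for the endoplasmic HSP70 BiP (-0.51 ± 0.05, adjusted p = 5.45e-07). Of the HSF-1 list, 2 of 5 were lower on K12, hsb-1 (-0.62 ± 0.08, adjusted p = 7.81e-06) and the deacetylase gene sir-2.1 (-0.17 ± 0.05, adjusted p = 0.00637, but 0.25 with library sizes alone). With library sizes alone, 17 of the 62 were higher and 30 lower on K12 and 11 and 35 on tnaA, with 12 and 13 of the 14 chaperonin genes lower. Of all 15133 genes tested, 7755 were then higher and 3032 lower on K12, and 7848 and 3140 on tnaA. Of the 8 HSP70 co-chaperones 2 were then higher and 2 lower on K12 and 0 and 3 on tnaA. Of the 9 HSP90 machinery genes 1 was then higher and 6 lower on K12, and 0 and 8 on tnaA. Of the 10 organelle genes 5 were higher and 2 lower on K12, and 4 and 5 on tnaA. Of the 5 genes of the HSF-1 list 3 were higher and 1 lower on K12, and 3 and 0 on tnaA. The call of hsp-4 on K12 was then lost, and that of sir-2.1 was also lost without late K12 replicate 3.

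With age, the small heat shock genes other than the HSP-16 family went both ways, as all genes tested did. On K12, 3 of 12 were higher and 5 lower, beside 32.9% and 36.7% of all genes tested. On tnaA 3 were higher and 7 lower, beside 35.6% and 36.3%. The gene hsp-12.6, which DAF-16 is known to drive, was at 7.15 and 7.99 CPM late against 1.32 to 1.92 CPM early on K12 (2.28 ± 0.27, adjusted p = 4.66e-06). Lower were hsp-25 (27.1 and 31.1 CPM late against 85.8 to 91.97 CPM early, -1.62 ± 0.07, adjusted p = 3.12e-10), hsp-12.2 (5.75 and 7.73 CPM late against 22.4 to 24.1 CPM early, -1.79 ± 0.12, adjusted p = 2.44e-08) and hsp-17 (18.9 and 22.04 CPM late against 45.1 to 62.7 CPM early, -1.40 ± 0.12, adjusted p = 2.92e-07). On tnaA, hsp-17 was at 13.4 and 15.8 CPM late against 81.0 and 86.7 CPM early (-2.50 ± 0.14, adjusted p = 2.82e-09). Of the quality control list, sqst-1, which codes for the autophagy receptor p62, was at 671 and 750 CPM late against 120 to 143 CPM early on K12 (2.39 ± 0.09, adjusted p = 8.07e-11), while cdc-48.1 (-0.91 ± 0.05, adjusted p = 5.30e-09) and cdc-48.2 (-0.83 ± 0.05, adjusted p = 6.69e-09) were lower. The call of hsp-17, hsp-25, hsp-12.2, hsp-12.6 and sqst-1 was made under all 21 alternatives on both bacteria.

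The genes whose levels ran most like those of the members were sought among 9395 tested genes of at least 5 CPM on average, by Pearson's r of log2 CPM over the 11 libraries. Late and early libraries form separate clusters here and share their scaling, so r is a description of the pattern over groups. For hsp-70 they were unc-23 (r = 0.96), ZK418.7 (0.94) and F57B9.1 (0.94). For hsp-110 they were F57B9.1 (0.99), dnj-13 (0.98) and Y18H1A.7 (0.98). For hsp-16.41 they were rme-1 (0.91), zip-5 (0.91) and nhx-9 (0.91). For hsp-1, which separates early from late libraries, cdk-5, cct-7 and eef-1A.1 all reached 0.996, and for hsf-1 they were Y11D7A.7 (0.94), jmjd-2 (0.92) and mdt-26 (0.92). Over the 6 late libraries alone, r of these pairs ran from 0.65 for hsf-1 with mdt-26 to 0.99 for hsp-110 with F57B9.1.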

How the data were processed

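For every library the authors deposited unnormalized gene counts. Trim Galore, STAR, HTSeq 0.6.1p2 and DESeq2 are named by the submitters' processing notes. Build, annotation, strandedness and the handling of multiply mapped reads are not stated in those sources, and coordinates are left out. Lines for reads in no gene and ambiguous reads (0.267 to 0.296%) stayed out of library sizes. Exons of hsp-70 and uggt-2, and of hsp-1 and the snoRNA gene F26D10.24, do not overlap in WBcel235 (Ensembl). That annotation was used for names, neighbours and exon lengths. Of 42048 symbols in the counts, 40200 were current symbols in a reference list of gene names or in RefSeq. The authors' deposited DESeq2 tables hold log2 fold changes, adjusted p-values and a normalized signal (counts over a size factor) per sample for genes under their threshold.

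Counts were fitted in R 4.3.3 with edgeR 4.0.16: filterByExpr with a minimum count of 10, TMM, 1 mean per group over all 11 libraries (6 residual degrees of freedom), two-sided quasi-likelihood F tests in 7 comparisons, Benjamini-Hochberg over 15133 genes in each. The fit was tested on simulated data. Alternatives were other scalings and filters, DESeq2 1.42.0, the compared groups alone, a replicate block, summed copies and leaving out each library. Leaving out a library of a group of 2 leaves 1 in it, so a call can be lost without a smaller log2 fold change. Replicates differed beyond counting error (chi-square over degrees of freedom 2.90 to 5.42). The labels call them biological replicates of pooled worms and give no batch. Reads carry no molecular identifiers, so limits on 0 counts cover counting error only.

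Members and lists were chosen with earlier results of these data known. Named were all members, up to 4 called genes of each list with the smallest p in both late comparisons with late K12 and in ageing on K12, and the 3 genes most like each of 5 members. Likeness used log2 CPM with a prior count of 2.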

Additional observations from a re-analysis of the deposited data

How the results depend on the processing

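Each result was recomputed under 21 alternatives, 1 of them added after the data were seen (without early tnaA replicate 2 and early K12 replicate 3). Summing near-identical or neighbouring copies and summing all HSP-16 genes gave the same fit, since only hsp-16.2 and hsp-16.41 had reads. Fewer than 21 alternatives are therefore distinct, and the tallies below count that fit under both names. Of the members' log2 fold changes, 829 kept their direction and side of the threshold, 27 passed it anew, 18 no longer passed it and 8 changed sign, while 131 counts of called members stayed within 1.5 times and 16 moved further. Without 1 library each, the members called numbered 4 to 5 in late ahr-1 over late K12, 4 to 4 over late tnaA, 3 to 6 and 5 to 6 for age on K12 and tnaA, and 0 to 1 in late tnaA over late K12, in early tnaA over early K12 and for the difference of age changes. In late tnaA over late K12 the count of 0 became 1 with RLE factors, library sizes alone, no filter, DESeq2 or the compared groups alone. In early tnaA over early K12 it became 3 with no filter and 2 with DESeq2. For the difference of age changes it became 1 with RLE factors, no filter, DESeq2 or the compared groups alone, in each case hsp-1. Signs changed with library sizes alone for age in hsp-70 (0.28 on K12, 0.0811 on tnaA) and hsp-110 (0.27 on K12, 0.14 on tnaA), for hsf-1 in late tnaA over late K12 when late K12 replicate 3 was left out (-0.0073, in a range of -0.0073 to 0.0996 over the libraries left out), and for hsp-1 in late ahr-1 over late tnaA with the replicate block (7e-04) and when late ahr-1 replicate 1 (0.0399) or late tnaA replicate 2 (0.0013) was left out, in a range of -0.0619 to 0.0399. The cause was not tested.

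Whether a replicate number marks a shared culture or day is not stated, and the numbers were not treated as pairs. Groups share 2 numbers at most, too few for a check, and deviations of same-numbered libraries correlated at -0.008 between late ahr-1 and late K12, 0.149 between late and early tnaA and -0.545 and -0.525 between early tnaA and early K12. With the replicate number as a block, members called numbered 5, 4, 0, 4, 6, 0 and 0 in late ahr-1 over late K12, over late tnaA, in late tnaA over late K12, for age on K12 and tnaA, in early tnaA over early K12 and for the difference. Over all genes the block moved the calls of late tnaA over late K12 to 25 higher and 21 lower, beside 646 and 886 without it, and those of the 62 chaperone list genes to 0, beside 13 lower.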
